A study of Mus musculus with 2 samples.

Results

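The 10 macrophage state genes Gpnmb, Cd68, Adgre1, Mrc1, Retnla, Trem2, Lyz2, Arg1, Cd163 and Spi1 were taken by symbol from the 19430 genes counted in spatial transcriptomic sections of mouse tibia fracture calluses, and all 10 were found. The sections were profiled with 10X Genomics Visium FFPE, which hybridizes a pair of probes to each transcript and counts the captured pairs by array spot as unique molecular identifiers (UMIs). Each of the 2 sections held the callus of 1 control mouse, Nf1[+/flox] without Postn-cre, beside that of 1 Nf1Postn mouse, Postn-cre;Nf1[flox/-], both collected 10 days after a distal tibia fracture held by an intramedullary pin. Both mice were 8-week old female littermates and both calluses were fixed in formalin and decalcified in 14% EDTA.

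Both genotypes carried a floxed Nf1 allele. In Nf1Postn mice the remaining allele was null in every cell, and Cre under the periostin promoter removed the floxed allele in periosteal and other periostin-expressing cells and their descendants. Macrophages of the Nf1Postn mouse therefore carried the constitutive null allele, and those of the control did not. The labels name the 2 sections biological replicates, but a single paraffin block gave both, and the names section 1 and section 2 are used instead. With 1 mouse per genotype no test between genotypes was possible. Whole-tissue levels are given per section, while many levels by tissue class and position are pooled over both sections. Intervals, where printed, are exact at 95% and cover counting error only, and some values are printed without one.

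Macrophages clear debris from a fracture, feed signals to progenitors and share their precursors with the osteoclasts that resorb cartilage and bone. Their state genes fall into groups. Spi1 encodes PU.1, the transcription factor that sets up the myeloid lineage. Cd68 encodes a late endosome and lysosome glycoprotein, Adgre1 the F4/80 surface receptor and Lyz2 the lysozyme of myeloid cells. Trem2 encodes a lipid-sensing receptor and Gpnmb a transmembrane glycoprotein of lysosome-loaded macrophages that osteoclasts, osteoblasts and melanocytes also make. Mrc1 (the mannose receptor CD206) and Cd163 (the hemoglobin and haptoglobin receptor) mark resident scavenging macrophages, while Retnla (RELM alpha) and Arg1 (arginase 1) are classical targets of interleukin 4 signalling through STAT6.

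The promoters of 4 of these genes are shown because together they cover different places of highest level in control tissue, with both sections pooled. Gpnmb and Trem2 shared theirs. Retnla was highest at the tissue edge and in mature muscle, adipose and tendon. Gpnmb and Trem2 were highest in fibrous and unclassed tissue, and Cd68 in osteoclast-rich bone. These placements were not equally clear in each section. In a single control section Cd68 was highest in the same patch as Gpnmb and Trem2. The edge did not stand out for Retnla in Nf1Postn tissue. Each sequence holds the 250 bases before the start of the canonical GENCODE vM39 transcript on GRCm39, read 5′ to 3′ on the gene's own strand. Capitals mark matches on either strand to GAGGAA (a PU.1 core), to the E-boxes CACGTG and CATGTG that MiT family factors such as MITF and TFEB can bind, and to TTCNNNNGAA (the spacing that STAT6 prefers). The windows lie at chr16:48662645-48662894 on the plus strand (Retnla), chr6:49013176-49013425 on the plus strand (Gpnmb), chr17:48653179-48653428 on the plus strand (Trem2) and chr11:69557068-69557317 on the minus strand (Cd68).
Retnla: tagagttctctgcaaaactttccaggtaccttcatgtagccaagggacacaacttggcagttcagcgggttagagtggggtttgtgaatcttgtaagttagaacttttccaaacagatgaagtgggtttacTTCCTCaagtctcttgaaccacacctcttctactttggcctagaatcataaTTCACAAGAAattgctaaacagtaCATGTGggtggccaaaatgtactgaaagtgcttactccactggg
Gpnmb: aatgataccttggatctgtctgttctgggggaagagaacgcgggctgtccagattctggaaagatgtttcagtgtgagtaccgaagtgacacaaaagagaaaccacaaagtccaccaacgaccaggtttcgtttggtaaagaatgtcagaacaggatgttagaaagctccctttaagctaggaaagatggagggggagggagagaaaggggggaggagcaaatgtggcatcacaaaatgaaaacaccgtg
Trem2: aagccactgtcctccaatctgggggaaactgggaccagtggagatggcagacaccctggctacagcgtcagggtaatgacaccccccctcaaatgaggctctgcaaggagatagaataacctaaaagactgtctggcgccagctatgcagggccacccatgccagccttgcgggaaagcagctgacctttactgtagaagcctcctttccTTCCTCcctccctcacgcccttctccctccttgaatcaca
Cd68: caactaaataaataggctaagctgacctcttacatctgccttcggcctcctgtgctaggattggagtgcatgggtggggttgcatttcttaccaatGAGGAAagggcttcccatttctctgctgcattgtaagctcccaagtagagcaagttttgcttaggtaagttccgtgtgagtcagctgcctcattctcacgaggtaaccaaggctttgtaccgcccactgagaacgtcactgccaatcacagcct

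Of these 4 promoters, Retnla held a match to TTCNNNNGAA, from -68 to -59 relative to the start site, together with a PU.1 core from -119 to -114 and a CATGTG from -44 to -39. Cd68 held a PU.1 core from -154 to -149 and Trem2 one from -40 to -35. Gpnmb held no match to any of the letters searched. Across the 10 genes a PU.1 core was found in 7 (Cd68, Adgre1, Mrc1, Retnla, Trem2, Lyz2 and Spi1), against 22.9% of 21751 protein-coding promoters. CATGTG was found in Mrc1, Retnla and Arg1, against 10.5% of promoters, and the STAT6 spacing in Retnla alone, against 5.89%. CACGTG, held by 6.26% of promoters, was in none of the 10. A match describes letters in this window and is not evidence of binding.

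Across 6380 spots the 10 genes were counted unevenly. Cd68 had 4419 UMIs and was seen in 36.8% of spots, Mrc1 2414 UMIs, Trem2 1939, Spi1 1417, Gpnmb 1341 and Retnla 739. Cd163 had 279 UMIs, Adgre1 155, Arg1 77 and Lyz2 64, so the last 4 genes are described with wide intervals. Probes differ in number and efficiency, so levels were compared between places for 1 gene and not between genes. Lyz2 has a near-identical paralog, Lyz1, counted at 305 UMIs, and the division of reads between them is uncertain. In the tables, on mm39, Gpnmb (ENSMUSG00000029816) lies at chr6:49013480-49047864, Cd68 (ENSMUSG00000018774) at chr11:69555039-69556980, Adgre1 (ENSMUSG00000004730) at chr17:57665691-57790528, Mrc1 (ENSMUSG00000026712) at chr2:14234203-14336869 and Retnla (ENSMUSG00000061100) at chr16:48662914-48664825. Trem2 (ENSMUSG00000023992) lies at chr17:48653429-48661176, Lyz2 (ENSMUSG00000069516) at chr10:117113236-117118227, Arg1 (ENSMUSG00000019987) at chr10:24791119-24803383, Cd163 (ENSMUSG00000008845) at chr6:124281615-124307487 and Spi1 (ENSMUSG00000002111) at chr2:90912735-90946102.

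Depth differed by genotype. Control tissue gave 1700 and 1778 spots with median depths of 7053 and 5718.5 UMIs, and Nf1Postn tissue 1341 and 1556 spots with medians of 2030 and 3239.75, while 5 spots had no genotype label and were left out of comparisons. Levels are therefore given as CPM, the UMIs of a gene divided by all UMIs of the same spots and scaled to 1000000. A spot is a region that can hold several cells, so fewer macrophages and less RNA per macrophage cannot be told apart. All 2711 barcodes found in both sections lay at the same array position, as the design of the slide gives them. Tissue composition also differed: spots whose neighbourhood was led by mature muscle genes were 3.54% of control and 25.4% of Nf1Postn spots, those led by erythroid genes 4.34% and 28.1%, those led by nerve genes 1.55% and 12.3%, those led by osteoclast genes 13.7% and 0.863%, and those led by cartilage genes 15.6% and 1.00%. The callus label was borne out by cartilage genes (Col2a1, Acan and others), at 51440 and 32520 CPM in control and 5152 and 9488 CPM in Nf1Postn, and all 9 general macrophage genes listed later were detected. Nf1, the targeted gene, was at 87.8 and 79 CPM in control and at 65.6 and 49.6 CPM in Nf1Postn, and probes outside the deleted exons would not show the deletion.

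Retnla was the member that differed most between genotypes. In control tissue it was at 10.0 CPM (8.41 to 11.9) in section 1 and 13.3 CPM (11.3 to 15.5) in section 2. In Nf1Postn tissue it was at 52.3 CPM (44.9 to 60.5) and 43.6 CPM (38.5 to 49.2). Both Nf1Postn values lay above both control values, and no interval overlapped between genotypes. Retnla was thus 5.21-fold higher (4.15 to 6.56) in section 1, 3.28-fold higher (2.69 to 4.02) in section 2 and 4.05-fold higher (3.49 to 4.70) over both. A gene was called when it differed by at least 2-fold the same way in both sections and had at least 50 UMIs in each, a filter that 8 of the 10 genes passed (Arg1 and Lyz2 did not). Retnla was the only 1 of these 8 called higher in Nf1Postn, against a background of 4.21% of 11851 genes. In both sections 46 genes had a ratio at or above that of Retnla, a count whose rule includes Retnla itself. None of the 8 was called lower, against 1.58% of genes.

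A few rich spots bore on the Retnla level. The fullest spot held 43 UMIs, 16.5% of all Retnla UMIs of Nf1Postn section 2, and lay in mature muscle. Without it, Retnla in Nf1Postn section 2 was at 36.5 CPM, 2.75-fold above control, and the ratio over both sections was 3.66-fold. As a mean of log2(CPM + 1) over spots, Retnla was higher by 0.35 in Nf1Postn, and the call was lost. That scale counts a spot equally whatever its UMIs. On it 0.608% of all genes were called higher and 21.3% lower, beside 4.21% and 1.58% of genes by CPM. The part of depth in that shift was not tested. Relative to a list of 9 general macrophage genes (C1qa, C1qb, C1qc, Csf1r, Aif1, Ms4a7, Fcgr1, Cd14 and Ctss), Retnla was at 8.82 UMIs per 1000 list UMIs in control and 40.4 in Nf1Postn of section 1, and at 8.57 and 44.4 in section 2. Relative to these genes Retnla was thus 4.58-fold (3.64 to 5.76) and 5.18-fold (4.24 to 6.34) higher in Nf1Postn. The log2 ratio of the general list itself was 0.19 in section 1 and -0.66 in section 2. The mature muscle list moved with Retnla, at a log2 ratio of 2.15 and 2.29, and the regenerating muscle list at 2.30 and 1.13. So did the erythroid list, at 3.50 and 2.50, the nerve list, at 1.72 and 2.03, and the melanocyte list, at 3.41 and 3.19. The part of these tissues in the whole-tissue ratio of Retnla was not tested, and levels within tissue classes are given later.

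**Figure D1:**
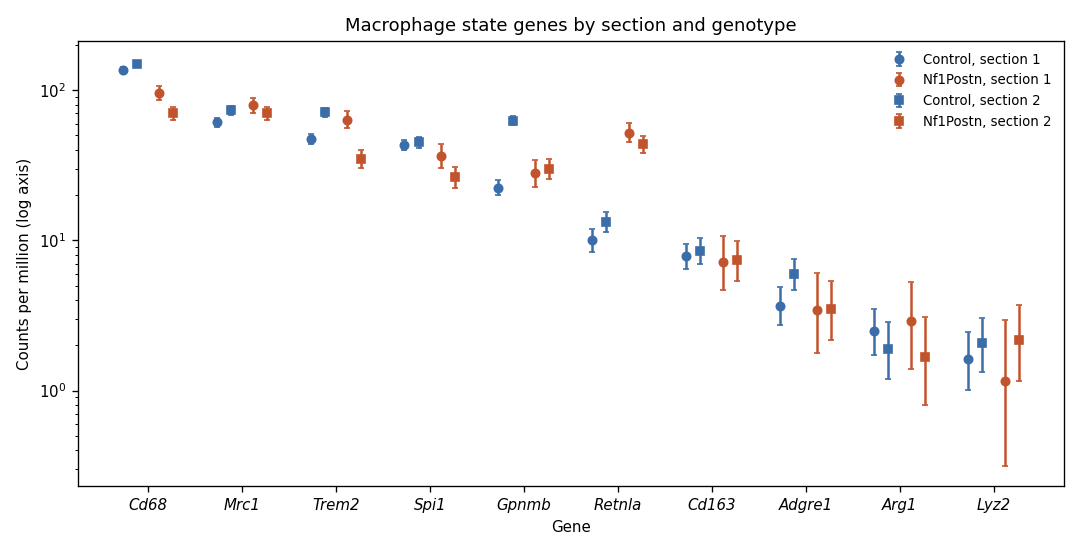
Level of each of the 10 genes in CPM (log axis) by genotype and section, with exact 95% Poisson intervals as bars. The Retnla points of Nf1Postn (52.3 and 43.6) stand apart from those of control (10.0 and 13.3), whereas the 2 Gpnmb points of control (22.5 and 62.7) stand apart from each other.

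Cd68, the general lysosomal marker, was lower in Nf1Postn tissue of both sections. Control tissue was at 136.4 CPM (130.3 to 142.8) and 149.8 CPM (143.0 to 156.9), Nf1Postn tissue at 95.6 CPM (85.6 to 106.5) and 70.2 CPM (63.6 to 77.2). The groups did not overlap, with control 1.43-fold (1.27 to 1.61) and 2.13-fold (1.92 to 2.38) above Nf1Postn. Spi1 was at 43.3 and 45.0 CPM in control and at 36.7 and 26.4 CPM in Nf1Postn, a log2 ratio of -0.24 (-0.53 to 0.04) in section 1 and -0.77 (-1.03 to -0.51) in section 2. Osteoclasts make both genes, and the summed osteoclast list differed by a log2 ratio of -1.04 in section 1 and -1.97 in section 2. Without spots led by osteoclast genes, the log2 ratio of Cd68 was -0.24 (-0.43 to -0.06) in section 1, nearer to 0 than the -0.51 of all spots, and -0.96 (-1.12 to -0.80) in section 2. That of Spi1 was 0.10 (-0.21 to 0.40) and -0.62 (-0.89 to -0.35). The part of osteoclasts in spots of other classes was not tested.

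Gpnmb and Trem2 went opposite ways in the 2 sections. Gpnmb was at 22.5 CPM in control section 1 and 62.7 CPM in control section 2, against 28.0 and 29.9 CPM in Nf1Postn. Its log2 ratio was 0.32 (-0.03 to 0.65) in section 1 and -1.07 (-1.31 to -0.83) in section 2. The 2 control sections of this gene differed by 2.79-fold, more than the genotypes did in either section. Trem2 was at 47.4 and 71.3 CPM in control and at 63.8 and 34.9 CPM in Nf1Postn, a log2 ratio of 0.43 (0.20 to 0.65) and then -1.03 (-1.25 to -0.81). Neither gene therefore had a genotype difference that held across sections on this scale. With TMM factors (trimmed mean of M-values, another scaling of depth) the log2 ratio in section 1 was 0.04 (-0.31 to 0.37) for Gpnmb and 0.15 (-0.08 to 0.37) for Trem2, so the higher level in section 1 depends on the scaling, and that in section 2 was -1.03 and -0.996. In Nf1Postn section 2 a single spot held 24 Gpnmb UMIs, 13.4% of that group, and without it the log2 ratio of section 2 was -1.27.

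Melanocytes also make Gpnmb, and the melanocyte list (Dct, Pmel, Tyrp1, Mlana and Tyr) was at 3.98 and 4.54 CPM in control and at 42.5 and 41.4 CPM in Nf1Postn. Gpnmb in Nf1Postn tissue was at 29.8 CPM (19.1 to 44.3) in the 203 spots with a melanocyte UMI and at 29.2 CPM (25.7 to 33.0) in the 2694 spots without one. In control tissue it was higher with a melanocyte UMI, at 70.1 CPM (54.1 to 89.4) in 106 spots against 40.4 CPM (37.9 to 43.0) in 3372. This came from section 2, at 121.1 against 60.5 CPM, while section 1 was at 24.5 (12.7 to 42.8) against 22.4 CPM. The part of melanocytes in the Gpnmb level was not tested. Without spots holding a melanocyte UMI, the log2 ratios of Gpnmb were 0.33 and -1.02, with the same opposite signs.

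The scavenger receptor genes were close between genotypes. Mrc1 was at 61.1 and 73.5 CPM in control and at 79.4 and 70.0 CPM in Nf1Postn, a log2 ratio of 0.38 (0.18 to 0.58) in section 1 and -0.07 (-0.24 to 0.10) in section 2. With TMM factors the value of section 1 was 0.10 (-0.11 to 0.29). Per 1000 UMIs of the general macrophage list, Mrc1 was at 1.14-fold (0.992 to 1.31) in section 1, an interval that includes 1, and 1.503-fold (1.33 to 1.69) higher in Nf1Postn in section 2. Cd163 was at 7.89 and 8.497 CPM in control and at 7.22 and 7.35 CPM in Nf1Postn, and all 4 intervals overlapped. Relative to the general list Mrc1 was thus higher beyond counting error in section 2 only, while Cd163 over the whole tissue showed no difference detectable at this depth.

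For the rarest genes the intervals were wide. Adgre1 was at 3.69 and 5.94 CPM in control and at 3.47 and 3.51 CPM in Nf1Postn. Arg1 was at 2.51 and 1.90 CPM in control and at 2.89 and 1.67 CPM in Nf1Postn. Lyz2 was at 1.62 and 2.06 CPM in control and at 1.16 and 2.17 CPM in Nf1Postn. The intervals of all 3 genes overlapped between genotypes in both sections, although the ratio of Adgre1 in section 2, 0.591-fold (0.345 to 0.972), excluded 1. Over both sections the ratio of Arg1 lay between 0.543-fold and 1.61-fold and that of Lyz2 between 0.529-fold and 1.74-fold. Over all 10 genes the median log2 ratio was -0.26, beside -0.09 over all genes tested. By section it was 0.06, beside 0.06 over all genes, in section 1 and -0.48, beside -0.21, in section 2, so its sign depends on the section.

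The genes were then followed through the tissue. Each spot was assigned to the tissue whose marker list was highest in the spot and its up to 6 neighbours relative to all spots, if by at least 2-fold, and otherwise to no class. The classes are regions named by their leading genes and used none of the 10 members. In control tissue Cd68 and Spi1 were highest in the osteoclast class (Acp5, Ctsk, Ocstamp and others). Cd68 was at 265.7 CPM (249.7 to 282.5) in its 478 spots, clear of the erythroid class at 166.2 (119.3 to 225.5), bone formation at 164.9 (149.8 to 181.0) and no class at 149.8 (140.9 to 159.1), which do not differ beyond counting error. The lowest were cartilage at 52.7 CPM (46.1 to 59.9) and mature muscle at 43.1 CPM (28.1 to 63.1). Spi1 was at 83.6 CPM (74.7 to 93.2) in the osteoclast class and at 51.8 CPM (43.5 to 61.2) in bone formation, and its lowest classes were cartilage at 18.2 CPM (14.4 to 22.6) and nerve at 12.6 CPM (3.43 to 32.3).

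Against all other control spots, Spi1 in the osteoclast class was 2.46-fold higher in section 1 and 2.07-fold in section 2. It was the only 1 of 8 members past 2-fold there in both, against 1.40% of 11294 genes, with Cd68 at 2.55-fold and 1.89-fold. Around the osteoclast class Cd68 was lower with each step of distance, at 265.7 CPM inside, 157.0 at 100 to 200 µm, 124.8 at over 200 to 500 µm and 106.3 beyond 500 µm. Spi1 followed the same order at 83.6, 52.7, 40.4 and 29.7 CPM. Mrc1 ran the other way, at 38.4, 58.3, 74.2 and 75.3 CPM, and so did Retnla at 5.16, 6.99, 10.7 and 15.9 CPM.

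Gpnmb, Trem2 and Arg1 were placed elsewhere. Gpnmb was highest in spots of no class, at 99.1 CPM (91.9 to 106.8), followed by the fibrous stroma class at 68.5 CPM (50.5 to 90.8). It was lowest in cartilage at 9.89 CPM and in bone formation at 9.39 CPM, whose intervals overlap. In spots of no class Gpnmb was 3.59-fold above other spots in section 1 and 5.13-fold in section 2, the only 1 of 8 members called there, against 0.469% of genes. Trem2 was at 92.6 CPM (85.7 to 100.01) in no class and at 91.3 CPM (70.3 to 116.6) in fibrous stroma, which do not differ beyond counting error, and at 4.97 CPM (1.02 to 14.5) in mature muscle. Arg1 was concentrated in fibrous stroma, at 32.8 CPM (20.8 to 49.2), where 73 of 3478 control spots held 23 of its 57 UMIs. The tendon, granulocytic marrow, mature muscle, nerve and erythroid classes had 0 Arg1 UMIs, with exact upper limits from 3.21 to 14.96 CPM.

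The scavenger receptors and Retnla were highest in soft tissues around the callus. Mrc1 was at 138.6 CPM (100.7 to 186.0) in the nerve class, 132.1 (112.1 to 154.7) in regenerating muscle and 128.1 (114.4 to 142.9) in adipose, which do not differ beyond counting error, and at 19.3 CPM (15.4 to 23.9) in cartilage. Cd163 was at 21.9 CPM (16.5 to 28.6) in adipose and 21.5 CPM (11.5 to 36.8) in mature muscle. Its adipose level was 3.35-fold and 3.25-fold above other spots, the only 1 of 8 members called there, against 0.823% of genes. Retnla was at 36.4 CPM (22.8 to 55.2) in mature muscle and at 28.7 CPM in both adipose (22.5 to 36.2) and tendon (19.8 to 40.3), 3 classes whose intervals overlap. Its mature muscle level came from section 1 (4.84-fold above other spots) more than from section 2 (1.10-fold). In the same mature muscle spots Cd68, Spi1 and Trem2 were called lower, 3 of 8 members against 16.3% of genes.

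**Figure D2:**
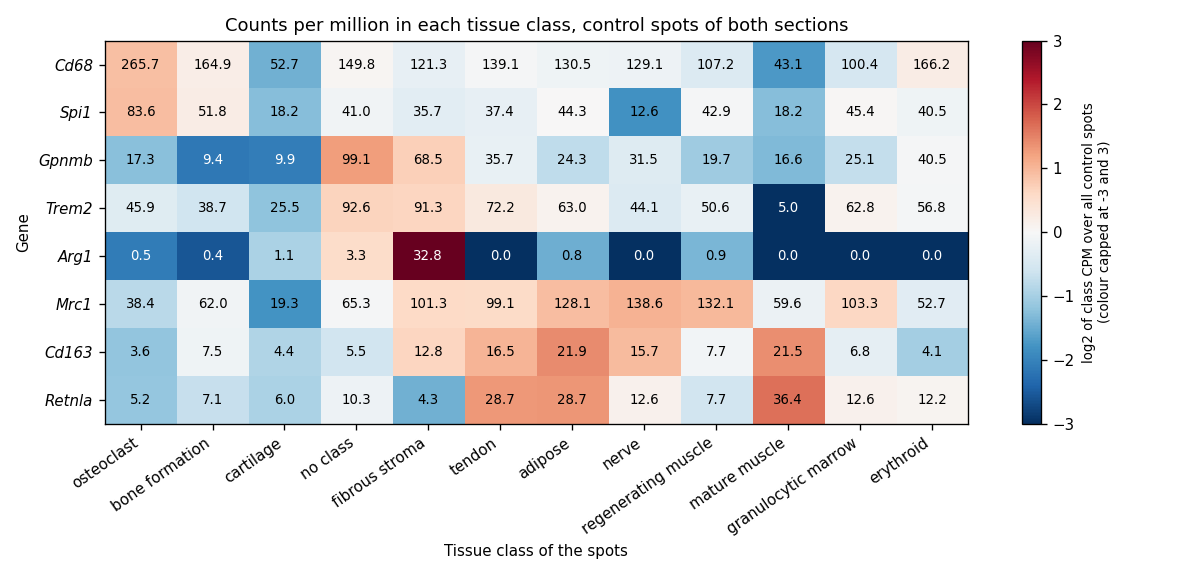
CPM of 8 of the genes (printed in each cell) in the tissue classes of control spots, both sections pooled. Colour is the log2 ratio of the class over all control spots, capped at -3 and 3, and cells at 0.0 take the lowest colour. Cd68 and Spi1 peak in the osteoclast class, Gpnmb and Trem2 in spots of no class and fibrous stroma, Arg1 in fibrous stroma, and Mrc1, Cd163 and Retnla in soft tissues.

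Position from the tissue edge separated the same genes. In control tissue Retnla was at 25.3 CPM in spots on the edge, 13.2 at 100 to 200 µm, 6.83 at over 200 to 500 µm and 7.46 deeper. Cd163 was at 17.6, 10.9, 5.49 and 3.01 CPM and Mrc1 at 108.0, 92.7, 48.5 and 37.0 CPM over the same steps. Edge spots were 3.03-fold and 2.48-fold above inner spots for Retnla and 3.05-fold and 2.38-fold for Cd163 in sections 1 and 2. These were the only 2 of 8 members called higher at the edge, against 1.97% of genes, and Mrc1 was at 1.78-fold and 1.79-fold. In Nf1Postn tissue the edge did not stand out for Retnla, at 0.720-fold and 1.04-fold, and 0 of the 6 members with enough UMIs were called, against 0.0571% of 8759 genes.

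**Figure D3:**
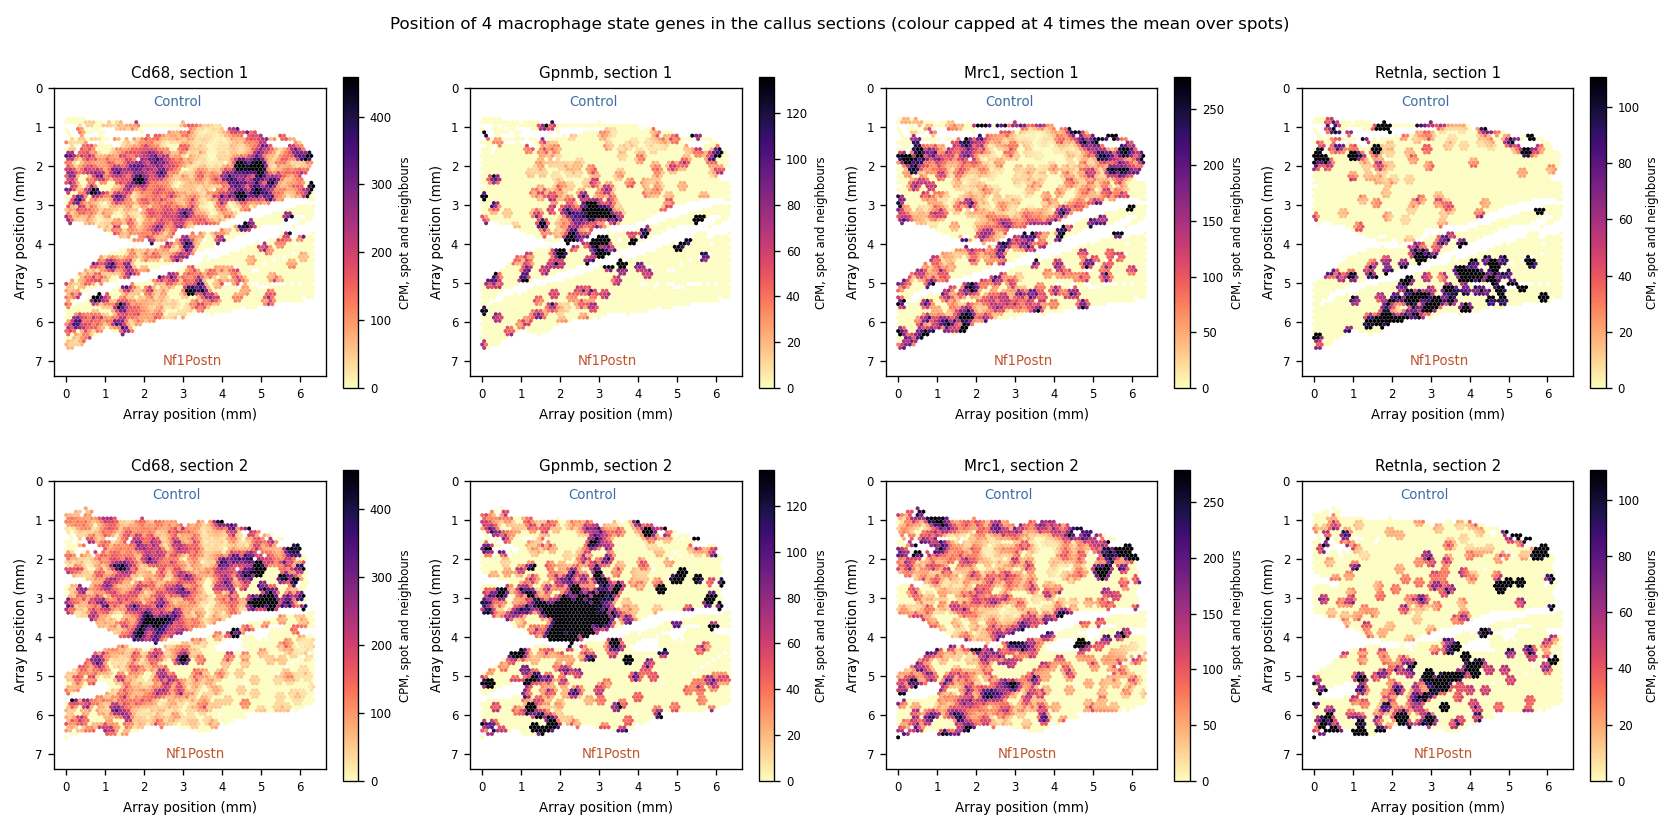
Position of Cd68, Gpnmb, Mrc1 and Retnla in both sections, with array position in mm on both axes and colour giving CPM over a spot and its neighbours, capped at 4 times the mean over spots. The control callus is the upper piece and the Nf1Postn callus the lower one. Retnla marks the control rim. In the Nf1Postn piece it extends beyond the rim but is uneven, with 27.6% of its section 2 UMIs in an area of 32 spots. Gpnmb forms a patch in control that is larger in section 2.

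Retnla was then compared between genotypes within the 7 classes that had at least 20 spots of each genotype in each section. Its level over both sections was higher in Nf1Postn in 7 of 7 classes, but only in regenerating muscle did the interval of the ratio lie above 1 in each section separately. The interval over both sections spans 1 in erythroid (0.663 to 10.5), nerve (0.780 to 8.56) and no class (0.742 to 2.37). In 4 of 7 classes Retnla was higher in section 1 and also in section 2, while nerve section 2 was at 0.878-fold (0.226 to 4.96). Bone formation rested on 5 Nf1Postn UMIs, 2 of them in section 1. In regenerating muscle, the spots with embryonic myosin and related genes, Retnla was at 26.9 and 4.92 CPM in control and at 141.7 and 46.0 CPM in Nf1Postn. These ratios of 5.27-fold (1.94 to 20.02) and 9.37-fold (3.77 to 30.02) rest on 9 control and 108 Nf1Postn UMIs.

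In adipose spots Retnla was at 36.7 and 17.4 CPM in control and at 70.5 and 67.1 CPM in Nf1Postn. In mature muscle it was at 42.9 and 14.6 CPM in control and at 43.7 and 67.0 CPM in Nf1Postn. The mature muscle levels of section 1 were thus alike, 1.02-fold (0.521 to 2.00), and those of section 2 rested on 2 control UMIs against 133, of which the fullest spot gave 43 and without which Nf1Postn section 2 was at 45.6 CPM, 3.12-fold (0.839 to 26.1) above control. In spots of no class Retnla was at 3.92 and 15.2 CPM in control and at 13.7 and 14.6 CPM in Nf1Postn, higher in section 1 and not in section 2. Combined over the 7 classes, Retnla was 2.40-fold higher in section 1, 2.98-fold in section 2 and 2.66-fold over both, with no interval computed. The whole-tissue ratio of 4.05-fold also covers the cartilage, osteoclast, fibrous stroma, granulocytic marrow and tendon classes. Control Retnla was at 5.98, 5.16, 4.28, 12.6 and 28.7 CPM in them. The whole-tissue and combined ratios thus rest on different spots, and the part of that difference was not tested. Without the mature and regenerating muscle classes, its log2 ratio was 2.23 in section 1 and 0.91 in section 2, so that the call of at least 2-fold in both sections was lost.

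**Figure D4:**
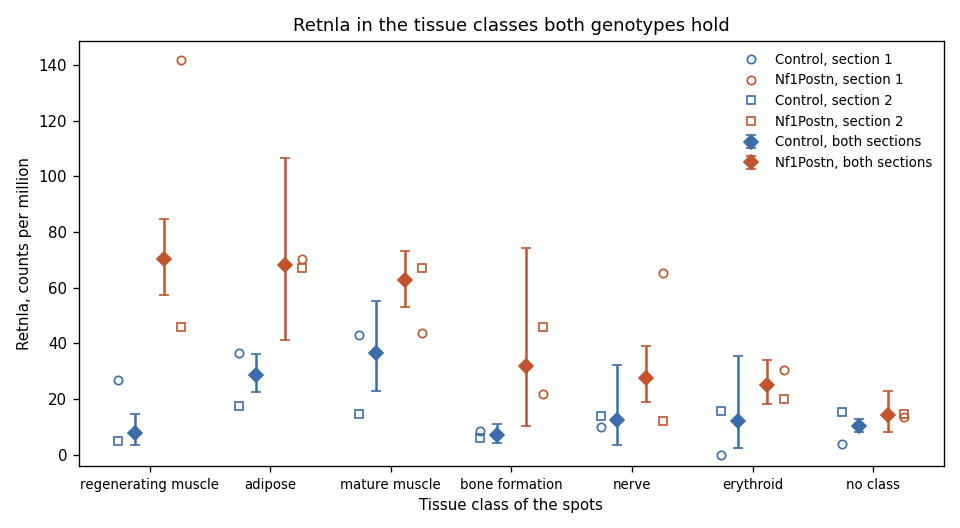
Retnla in CPM in the 7 tissue classes that both genotypes hold. Filled diamonds give both sections pooled with exact 95% Poisson intervals and open symbols the single sections. The pooled Nf1Postn level lies above that of control in each class, with the widest gap in regenerating muscle (7.72 against 70.2) and the narrowest in spots of no class (10.3 against 14.1).

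Combined over the same classes, the other members differed less than Retnla. The largest differences were those of Adgre1, at 1.05-fold in section 1 and 0.461-fold in section 2, and Cd163, at 0.799-fold and 0.579-fold. No interval was computed for ratios combined over classes, and Adgre1 and Cd163 had only 155 and 279 UMIs in all spots. In mature muscle Cd163 was at 0.342-fold (0.158 to 0.760) over both sections, on 13 control and 18 Nf1Postn UMIs. Cd68 was lower in Nf1Postn in 7 of 7 classes over both sections, with a log2 ratio from -0.95 in nerve to -0.11 in bone formation. The interval spans 0 in bone formation (-0.77 to 0.48), mature muscle (-1.01 to 0.34) and regenerating muscle (-0.53 to 0.18). In 5 of 7 classes it was lower in section 1 and also in section 2, but none of the 7 had an interval below 0 in each section separately. Combined over classes Cd68 was 1.32-fold lower, beside 1.80-fold in the whole tissue. The whole tissue also holds the osteoclast, cartilage, fibrous stroma, granulocytic marrow and tendon classes. Spi1 combined over classes was at 0.965-fold, from 1.24-fold in section 1 and 0.882-fold in section 2. Trem2 in bone formation was at 32.7 and 43.5 CPM in control and at 76.1 and 137.6 CPM in Nf1Postn, from 16 Nf1Postn UMIs in 65 spots. These ratios were 2.33-fold (0.878 to 5.26) in section 1, an interval that spans 1, and 3.16-fold (1.38 to 6.38) in section 2. Over all classes combined Trem2 was at 1.37-fold in section 1 and 0.845-fold in section 2. Gpnmb combined over classes was at 0.876-fold and 0.771-fold, below 1 in both sections. The sign of the Mrc1 ratio differed between classes, though not all intervals excluded 1. It was lower in both sections in mature muscle, regenerating muscle and nerve, at 0.618-fold (0.415 to 0.936), 0.816-fold (0.652 to 1.02) and 0.575-fold (0.397 to 0.843) over both. Over both sections it was higher in the other 4 classes, but in bone formation, erythroid and adipose the interval spans 1. Spots of no class were at 1.35-fold (1.08 to 1.68), from 1.94-fold (1.43 to 2.60) in section 1 and 0.927-fold (0.640 to 1.31) in section 2. Combined over classes Mrc1 was at 0.960-fold.

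SpatialTime, the study's own measure of distance to the fracture plane, covered 1344 control spots of section 1. The spots near the fracture had the most Gpnmb: 43.0 CPM (36.4 to 50.5) at SpatialTime 0 to 4, then 22.4, 14.2, 13.6 and 10.6 (5.96 to 17.6) at 20 to 25, or 4.04-fold from near to far. Trem2 ran from 59.6 to 41.2 CPM, 1.45-fold. Arg1 was at 6.60 CPM (4.18 to 9.90) in the nearest spots and at most 2.13 CPM in the others. These 3 genes were thus highest beside the fracture plane, although the interval of Arg1 between the ends (a log2 ratio of -4.01 to 0.10) spans no difference.

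Other members were higher away from the fracture plane. Mrc1 was at 36.1, 43.4, 59.0, 79.2 and 98.7 CPM over the 5 steps, 2.73-fold from near to far. Spi1 was at 23.2, 40.8, 61.5, 63.7 and 51.1 CPM and Cd68 at 81.4, 116.4, 205.2, 192.9 and 139.1 CPM, both highest in the middle. Cd163 went from 4.30 to 13.5 CPM, 3.14-fold on 15 and 19 UMIs. Of 5 members with enough UMIs, 2 (Mrc1 and Spi1) were higher at the far end, against 5.76% of 9295 genes, and 1 (Gpnmb) was lower, against 3.31%. The general macrophage list changed little over the same steps, at 1114 CPM in the nearest and 1249 CPM in the farthest spots, while the osteoclast list went from 2026 to 12602 CPM in the middle step.

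**Figure D5:**
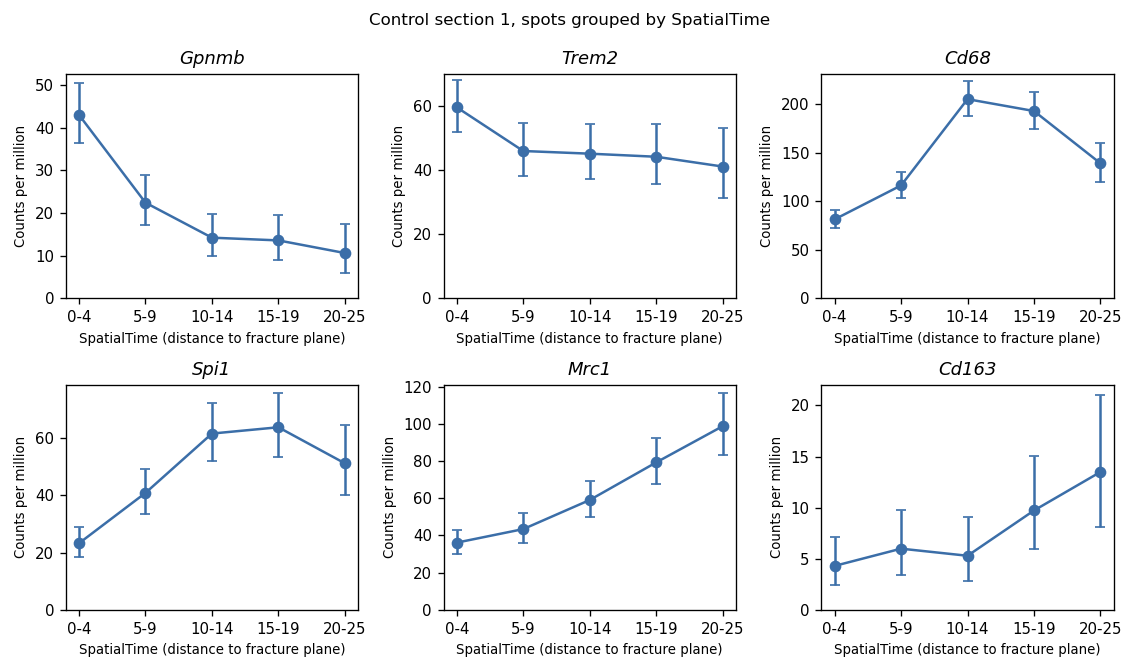
CPM of 6 genes in control section 1 by SpatialTime, the distance to the fracture plane, with exact 95% Poisson intervals. Gpnmb steps down from 43.0 to 10.6, Cd68 and Spi1 peak in the middle steps, and Mrc1 climbs from 36.1 to 98.7.

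The clusters that the study assigned to these same spots give the order in its own terms. Cd68 and Spi1 were highest in its woven bone cluster, at 224.5 CPM (210.3 to 239.4) and 72.7 CPM (64.7 to 81.3). Gpnmb was highest in ossifying perichondrium at 37.2 CPM (32.2 to 42.7) and at 16.8 CPM (8.95 to 28.8) in the progenitor cluster. Trem2 was at 75.0 CPM (57.0 to 97.0) in the progenitor cluster and 59.9 CPM (53.6 to 66.7) in ossifying perichondrium, intervals that overlap. Mrc1 was at 138.4 CPM (113.4 to 167.3) in the progenitor cluster, near the 129.2 CPM (72.3 to 213.1) of distal cortical bone. Cd163 and Retnla were at 28.5 CPM (17.8 to 43.1) and 32.3 CPM (20.9 to 47.7) in the progenitor cluster.

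Gpnmb in the control callus was spread unevenly. The sections were divided into tiles of 866 by 1000 µm, and 79 tiles held at least 30 spots of 1 genotype. Retnla was uneven too in Nf1Postn section 2, where a tile of 32 spots held 27.6% of its UMIs in 4.33% of all UMIs. Retnla was at 278.0 CPM in that tile, beside a median of 30.5 CPM over the tiles of its group. In Nf1Postn section 1 its highest tile held 12.7% in 4.96%. In control section 2 a single tile of 75 spots was the highest tile for 6 members, Gpnmb, Cd68, Adgre1, Trem2, Arg1 and Spi1, and was chosen for description by that. It held 32.4% of the Gpnmb UMIs in 5.92% of all UMIs of its group. Gpnmb was at 342.6 CPM in the tile and 45.1 CPM in the other control spots of the section, and Trem2 at 250.7 and 59.98 CPM. Cd68 was at 328.7 and 138.5 CPM, Spi1 at 87.7 and 42.3 CPM and Arg1 at 13.9 and 1.14 CPM. These members were 2.08-fold to 12.2-fold higher inside the tile, whereas Mrc1 was at 62.7 against 74.2 CPM and Retnla and Cd163 had 2 UMIs each there.

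Of the 75 spots in this tile, 61 were of no class and 12 of fibrous stroma. The general macrophage list was 2.98-fold higher inside it, the monocyte list 3.12-fold, the inflammatory list 2.91-fold, and the stromelysin gene Mmp3 14.1-fold. In the same tile Gpnmb was at 7.60-fold, Trem2 at 4.18-fold and Cd68 at 2.37-fold, values that the choice of the tile raises, so they were not ranked against the lists. With the tile left out of the control, the log2 ratio of Nf1Postn over control in section 2 was -0.59 for Gpnmb and -0.78 for Trem2, against -1.07 and -1.03 with it. The tile was chosen as the highest of the control, and no Nf1Postn tile was left out, so a smaller difference was given by that choice. In section 1 the highest Gpnmb tile was at another position, with 83.2 CPM (66.0 to 103.6) and 26.2% of the Gpnmb UMIs of its group. The array position described for section 2, which need not be the same anatomical place, held 51 control spots in section 1 at a median SpatialTime of 3. Gpnmb there was at 72.1 CPM, 3.59-fold above the rest of the control, Trem2 at 102.5 CPM, 2.29-fold, and Arg1 at 28.8 CPM from 18 of its 34 UMIs in that group. Cd68 was at 1.15-fold there (a log2 ratio of -0.11 to 0.49) and Spi1 at 0.769-fold (-1.08 to 0.25), intervals that span no difference. The general macrophage list was at 2.13-fold there and the monocyte list at 2.51-fold, near the 2.29-fold of Trem2. The inflammatory list was at 0.882-fold, Mmp3 at 1.86-fold on 12 UMIs and Mrc1 at 1.56-fold. Genes of the inflammatory list went opposite ways at this position, so its sum does not stand for each gene. Ccl7 was at 3.10-fold in section 1 and 6.75-fold in section 2, and Ptgs2 at 0.225-fold and 0.555-fold. Gpnmb, Trem2 and Arg1 were thus high at this position in both sections, and so were the general macrophage and monocyte lists. Cd68, Spi1 and the summed inflammatory list were not higher beyond counting error in section 1, although Ccl7 of that list was. For the members the values of section 2 were favoured by the choice of the tile.

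Across tiles, members with at least 200 UMIs were compared pair by pair on log2(CPM + 1). Tiles of a section share a library and neighbouring tissue, so these correlations are descriptions and no p was computed. In the 40 control tiles Cd68 and Spi1 had r = 0.872, Gpnmb and Trem2 r = 0.780 and Mrc1 and Cd163 r = 0.671. In the 39 Nf1Postn tiles the same pairs, chosen as the highest in control, had r = 0.401, 0.381 and 0.412. Other pairs had a higher r in Nf1Postn than in control tiles: Cd68 and Trem2 at 0.738 against 0.568, Gpnmb and Spi1 at 0.570 against 0.079 and Gpnmb and Mrc1 at 0.558 against -0.076. Retnla had r between -0.21 and 0.194 with every other member over all 79 tiles. The 3 pairs thus stood together in control tissue, while the highest r of Retnla with any member in control tiles was 0.377, with Mrc1.

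Among 8629 genes, those whose level over the 79 tiles was most like Cd68 were Npc2 (r = 0.888), Ctsz, Laptm5, Gusb and Tcirg1, most of them lysosomal, and Tcirg1 an osteoclast proton pump subunit. Nearest to Spi1 were Arhgdib (r = 0.812), Metrnl, Ccl9, Glb1 and Hexa, and nearest to Trem2 were Tapbp (r = 0.831), Zfp36l2, Sirpa, Il3ra and Emp1. Nearest to Mrc1 were Trf (r = 0.821), Ebf1, C1qc, Adam33 and Nnmt. Gpnmb was nearest to Ctss (r = 0.695), Arhgap25, Adam8, Elf4 and Aspn, and Cd163 to Clec10a (r = 0.564), Dio2, Mrc1, Ntrk2 and Acbd4. Retnla was nearest to Itih5 (r = 0.641), Dach1, Map4, Ablim3 and Nrep. With 41 larger tiles 3 of the 5 genes nearest to Cd68 were again among its nearest 5, and 0 of 5 for each of the other 6 members, so those names depend on the tile size.

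The wider macrophage programs gave the members a setting. Of the 9 general macrophage genes, none was called between genotypes, against 4.21% of 11851 genes called higher and 1.58% called lower. Of 14 tested genes of the TREM2 and lysosome program, 1 was called higher in Nf1Postn, against the same 4.21% of all genes. It was Mmp12, the macrophage elastase, at 2.95 and 6.43 CPM in control and 13.6 and 18.0 CPM in Nf1Postn. Next was Cd36, a fatty acid receptor that muscle and fat also make, at 1.51-fold and 2.22-fold, and the lowest were Fabp5 and Lgals3, lower by 1.59-fold and 2.28-fold and by 1.77-fold and 2.10-fold. Of 10 tested genes of the resident and alternatively activated list none was called, against the same shares of all genes. Mgl2, a lectin gene often induced with Retnla, was at 4.70-fold and 1.69-fold, Pf4 at 1.52-fold and 1.09-fold, and Ccl8 and F13a1 were the lowest, at log2 ratios of -0.89 and -1.87 and of -1.23 and -0.96. The resident list thus held genes on both sides, and its summed level was at a log2 ratio of -0.20 and -0.78.

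Of 5 tested inflammatory genes 1 was called, against 1.58% of all genes called lower. It was Ptgs2 (cyclooxygenase 2), which was 4.85-fold and 4.06-fold lower in Nf1Postn, and which chondrocytes and osteoblasts also make. With lists this small, the counts called are not read as results about a program. None of 4 monocyte genes was called, against the same shares of all genes, and their summed list had a log2 ratio of 0.43 and -0.45. The antigen presentation list (Cd74, H2-Ab1 and others) had 0 of 6 called, against these shares, with a log2 ratio of 1.28 in section 1 and 0.08 in section 2. The general, lysosomal and monocyte lists thus had opposite signs in the 2 sections on the CPM scale. With TMM factors, which shifted every log2 ratio of section 1 by -0.28, the general list was at -0.09 and -0.62 and the lysosomal list at -0.16 and -0.39, the same sign in both sections, while the monocyte list stayed at 0.15 and -0.42.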

How the data were processed

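Per the labels and the study's methods, reads were aligned to mm39 with Space Ranger 1.3.0 and exported from Partek Flow by spot. The deposited tables hold expected counts per gene and spot, nearly all whole UMIs, not normalized; they also hold 1 entry with no gene name, of 11.6 and 6.8 counts, which was left out. The authors also gave genotype for most spots, and cluster and SpatialTime for part of section 1. Counts were summed over the spots of a group and divided by all counts of that group (CPM). Intervals are exact Poisson for levels and exact conditional binomial for ratios, at 95%. No test, standard deviation or p was computed, since each genotype is 1 mouse. The members and all gene lists were chosen with earlier results of these data known. A gene of the general macrophage list as first drawn up is not reported here, and the list was computed without it. All members were named, and of each other list the 2 highest and 2 lowest pooled ratios where it is broken down. Mmp3, and the tile values of Ccl7 and Ptgs2, were added after they were seen. Python 3.11.15, pandas 2.3.3, scipy 1.17.1 and edgeR 4.0.16 (TMM factors only) were used, and the scripts were tested on simulated data. Alternatives were single sections, mean log2(CPM + 1), TMM scaling, spots of at least 1000 UMIs, thinning to 1000 UMIs, no gene filter and other class and tile settings. Those without fullest, osteoclast, muscle or melanocyte spots and within classes were chosen after seeing the data.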

Additional observations from a re-analysis of the deposited data

How the results depend on the processing

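No paired analysis was possible because each genotype is 1 mouse, so there was no test that a section block could enter. Leaving out a section, the number of members lower by at least 2-fold was 0 without section 2, against 2.3% of all genes, and 3 without section 1 (Gpnmb, Cd68 and Trem2), against 6.17%. By the mean of log2(CPM + 1) over spots, 0 members were called higher, against 0.608% of genes, and 2 lower (Cd68 and Spi1), against 21.3%, and 0 were called higher without muscle class spots, against 4.29%. The median log2 ratio of the members was -0.67 with each spot thinned to 1000 UMIs, beside -0.26. Without a gene filter 2719 genes were called higher, beside 499, and 251 lower, beside 187. The causes were not tested. Over 11 alternatives the log2 ratio of Retnla stayed positive (0.35 to 2.38), and those of Cd68 (-2.43 to -0.40), Adgre1 and Spi1 negative, while the other 6 members took both signs. TMM shifted every log2 ratio by -0.14 over both sections, -0.28 in section 1 and 0.03 in section 2. Of 110 whole-tissue alternatives 94 kept their sign, and 39 moved beyond the counting interval. Of 169 alternatives for genotype ratios within a class 145 kept their sign and 24 did not. Of 44 for a member's leading class all 44 kept their sign and 18 moved beyond the interval. That class was chosen as the highest in these same spots, so a kept sign was favoured in advance. Depth limits Adgre1, Arg1, Cd163 and Lyz2, and Nf1Postn spots throughout.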
